A study of Sus scrofa with 15 samples.

Results

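RNA-seq libraries of the donor cells of a pig cloning study were compared with those of the 4-cell embryos made from such cells. PFF are pig fetal fibroblasts at passage 2 to 5, with no treatment named in the labels. The paper describes those used as donor cells as grown in serum to contact inhibition. SCNT4c are untreated 4-cell embryos made by somatic cell nuclear transfer (SCNT), in which the nucleus of 1 such fibroblast replaces that of a mature oocyte. Each SCNT4c library was made from a pool of 30 embryos. The members are all 6 of these libraries of the 15 libraries analysed here, 3 in each group, and the 43294 features of the table. The labels do not say whether the PFF libraries came from separate cultures, so p-values measure only the spread between these samples, which may be technical. The question was which functions belong to the genes that a fibroblast nucleus lost, kept and gained after transfer into the egg.

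The fibroblast is the main connective tissue cell, known for secreting collagen and for its contractile cytoskeleton. The egg stores mRNA and protein for the cleavage divisions. In pig embryos fertilized in vivo, the embryo's own genome is known to become broadly active around the 4-cell stage. The paper cites earlier work that places this change later in SCNT embryos, at the 8-cell stage. A 4-cell SCNT embryo therefore holds RNA stored by the oocyte, RNA made from the transferred nucleus and any RNA brought in with the donor cell. These sources cannot be told apart in a bulk library, and fewer cells of a type and less RNA per cell cannot be told apart either.

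The libraries held 22224949 to 22868038 reads on annotated features in PFF and 20460653 to 22530486 in SCNT4c, so both groups were read to a like depth. At least 3 reads were found on 13086 to 13214 known genes in PFF and on 14754 to 15473 in SCNT4c. The log2 values of libraries correlated across features at 0.985 to 0.986 within PFF, at 0.872 to 0.932 within SCNT4c and at 0.180 to 0.197 between the groups. Features are not independent replicates, so these correlations are descriptions. Values are reads divided by a factor for each library, not by gene length, so levels are compared between libraries and not between genes. The SCNT4c libraries are named a, b and c, since the labels number these samples in conflicting ways. *KDM4A*, which was injected in another group of the study, served as a check of the labels: its value was 313, 136 and 134 in the libraries used as SCNT4c and 1437, 1476 and 1429 in the injected group. It was 852, 555 and 918 in the 4-cell embryos labelled TDG, also above SCNT4c, so a higher value did not mark the injected group alone. RNA of PFF was extracted with another kit than that of the embryos, so the kit and the group cannot be told apart.

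Marker genes of the labelled cell and embryo types were checked first. Of 20 fibroblast markers, 19 could be tested and all 19 were lower in SCNT4c, with a summed value of 4460756 to 4813176 in PFF and 7885 to 9326 in SCNT4c. *PDGFRA* was listed at 0 in all 6 libraries. Of 19 oocyte and cleavage markers found in the table, 13 could be tested and all 13 were higher in SCNT4c, with a summed value of 11.5 to 27.4 in PFF and 291137 to 329071 in SCNT4c. *GDF9*, *BMP15*, *TLE6* and *MOS* were listed at 0 in all 6 libraries. Reads of an assembled transcript at the same locus were counted apart from the gene, and with them added the mean of *GDF9* was 97.2 in PFF and 12584 in SCNT4c and that of *BMP15* was 0 in PFF and 6139.7 in SCNT4c. Such a transcript shares the locus of 56.9% of known genes, so a low value of a single gene can rest on this split.

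Of 13695 known genes tested, 10652 (77.8%) changed, that is, passed a Benjamini-Hochberg adjusted p of 0.05 in limma and a 2-fold limit. In SCNT4c 4076 (29.8%) were higher and 6576 (48.0%) lower, and the median log2 fold change was -1.12. All PFF libraries lay above or below all SCNT4c libraries for 85.3% of these genes. Over all 19287 features tested, assembled transcripts included, 78.2% changed, with 39.7% higher and 38.5% lower, and of the 5592 assembled transcripts 64.1% were higher and 15.1% lower. Scaling each library to the same total raised the median log2 fold change over the same features by 0.58, and 35.6% of known genes were then higher and 40.5% lower (35.1% and 41.2% with TMM factors). Log2 fold changes are given on the scale of log2(value + 1), which understates the change of genes with low values.

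The 3 classes were cut from this fit, so their sizes are descriptions with no test of their own. Lost genes reached a PFF mean of 50 and were lower in SCNT4c. Gained genes reached a SCNT4c mean of 50 and were higher there. Kept genes reached a PFF mean of 50 and had a 95% interval of the log2 fold change between -1 and 1. Unless another scaling is named, kept refers to the values as deposited. Of 8659 genes that reached a PFF mean of 50, 5820 (67.2%) were lost, 691 (7.98%) were kept, 1025 were gained and 1123 fell in no class. Of 7633 genes with such a mean in SCNT4c, 3059 (40.1%) were gained, and 2034 of the gained genes had a PFF mean under 50. Of the lost genes, 461 had fewer than 3 reads in every SCNT4c library (5.32% of the 8659), and 286 were listed at 0 in all of them. Of the gained genes, 1164 had fewer than 3 reads in every PFF library (15.2% of the 7633), and 917 were listed at 0 there.

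The median lost gene went from a mean of 845 in PFF to 43.8 in SCNT4c, and the median gained gene from 6.88 to 378. Among lost genes, 1248 fell by 2- to 5-fold, 1917 by 5- to 20-fold, 1594 by 20- to 100-fold and 1061 by more. Among gained genes, 682 rose by 2- to 5-fold, 673 by 5- to 20-fold, 838 by 20- to 100-fold and 866 by more. Protein-coding genes made up 96.3% of lost, 95.5% of kept and 72.0% of gained genes, against 83.9% of all known genes tested. Long non-coding RNA genes made up 3.09%, 3.76% and 25.2%, against 13.8%, and genes with only a LOC number 6.96%, 6.08% and 35.6%, against 21.5%. More of the gained genes than of the lost or kept genes thus had no gene name in the annotation.

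**Figure D1:**
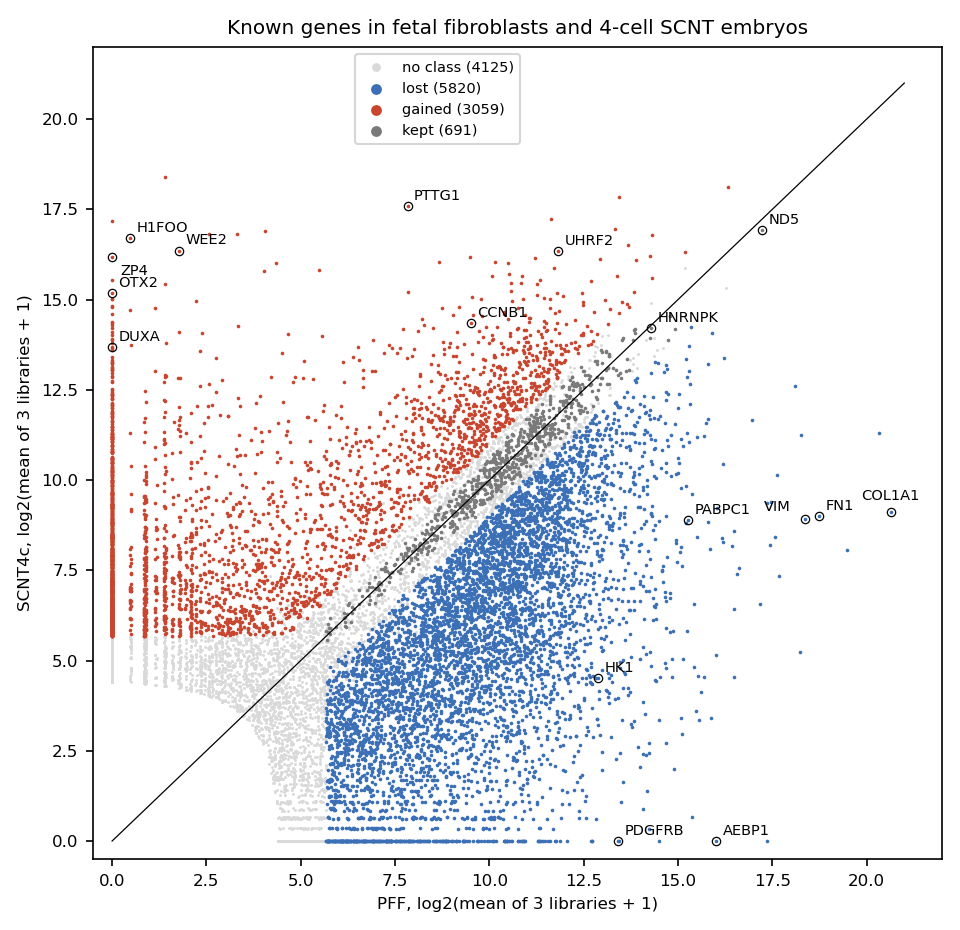
Mean of the 3 SCNT4c libraries against the mean of the 3 PFF libraries for the 13695 known genes tested, both as log2(mean + 1), with the line of equal values. Colors mark the 5820 lost, 691 kept and 3059 gained genes, and circled genes are named; genes such as *PDGFRB* and *AEBP1* lie at 0 in SCNT4c, and *ZP4*, *OTX2* and *DUXA* at 0 in PFF.

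The classes also held different shares of the libraries. Lost genes held 81.4% to 81.8% of the summed value of the PFF libraries and 8.33% to 8.76% of that of the SCNT4c libraries. Gained genes held 4.81% to 4.95% and 61.6% to 63.1%, and kept genes held 6.12% to 6.24% and 9.25% to 9.72%. Assembled transcripts with no gene name, which were not used to form the classes, went from 1.92% ± 0.043 (SD, n = 3) to 11.4% ± 0.782 (SD, n = 3). That difference had an exact two-sided permutation p of 0.1, the smallest that 3 against 3 libraries can give. The authors assembled these transcripts from sequenced reads, and most of the 15 libraries are of embryos. The list may therefore favour transcripts of embryos, which was not tested, so this share is a description. In the other embryo groups of the study, lost genes held 7.99% to 17.8% of the value in 8-cell SCNT embryos. They held 20.4% to 22.7% in 4-cell embryos given *KDM4A* mRNA with the EZH2 inhibitor GSK126. In 4-cell embryos with transient *TDG* overexpression they held 19.6% to 21.7%. The classes were cut on the SCNT4c libraries, so these shares describe the other groups and are not compared with it.

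**Figure D2:**
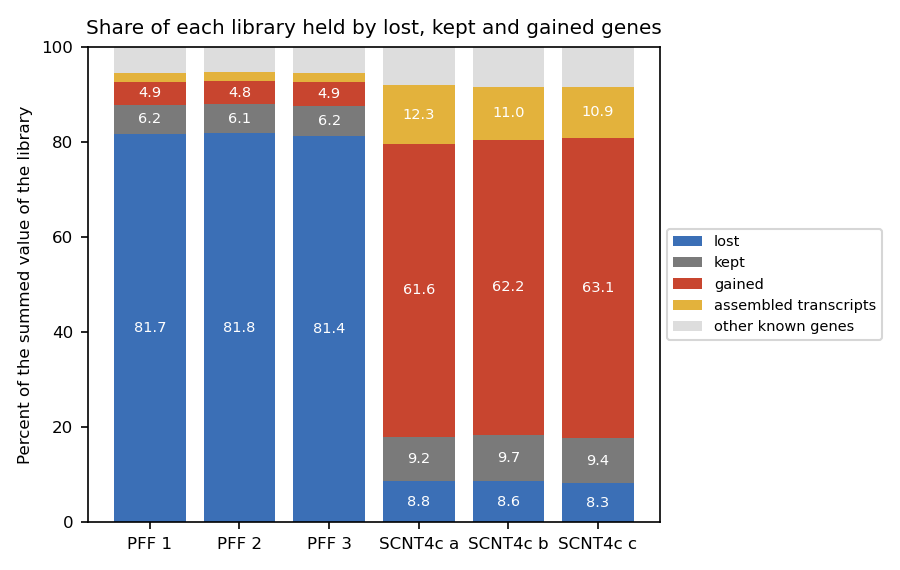
Percent of the summed value of each of the 6 libraries held by lost, kept and gained genes, assembled transcripts and all other known genes. Lost genes hold over 81% of each PFF library and under 9% of each SCNT4c library, and gained genes hold over 61% of each SCNT4c library.

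The 10 lost genes of highest value held 20.8% of the PFF value and 0.0794% of the SCNT4c value. These were *COL1A1*, *COL1A2*, *THBS1*, *FN1*, *VIM*, *SPARC*, *FLNA*, *ACTG1*, *COL5A2* and *ACTA2*, which encode fibrillar collagens, other proteins of the extracellular matrix, the intermediate filament vimentin, and actins with a protein that crosslinks them. The 10 gained genes of highest value, among those with a name, held 8.57% of the SCNT4c value and 0.508% of the PFF value. They were *FTL*, *CDV3*, *PTTG1*, *AKIRIN2*, *BTF3*, *PEX5L*, *KPNA7*, *NPM1*, *H1FOO* and *HNRNPA1*. *FTL*, the ferritin light chain, rose while *FTH1*, the ferritin heavy chain, fell, with log2 fold changes of 1.78 and -3.29. These genes were picked by their values, which are not divided by gene length, so the ranking also depends on length.

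Genes of the extracellular matrix were lost nearly throughout. All 16 collagens tested were lower, with a median log2 fold change of -9.94, against 48.0% of known genes lower and a median of -1.12, as were 27 of 31 matrix glycoproteins and proteoglycans, with 3 higher and a median of -7.59, and 22 of 24 matrix-processing enzymes, with 2 higher and a median of -8.08. With members under 3 reads set to their bound, the median of the collagens was -9.21 and that of the enzymes -7.79. *COL1A1*, the main chain of type I collagen, had values of 1625371, 1722224 and 1551062 in PFF and 827, 429.9 and 392 in SCNT4c. The SCNT4c values lay far below the PFF values without being at 0, and its log2 fold change was -11.62 ± 0.28 (SE), with an adjusted p of 7.02e-07 in limma. *FN1*, the matrix protein fibronectin, had values of 418083, 409902 and 482024 in PFF and 591, 544 and 390.2 in SCNT4c (log2 fold change -9.76 ± 0.17 (SE), adjusted p = 4.3e-07 in limma). *COL6A3*, a chain of type VI collagen, had values of 6057, 5541 and 8297 in PFF and 0 in all 3 SCNT4c libraries, and was at least 2529.7-fold lower in SCNT4c. *MMP14*, a membrane-bound matrix protease, had values of 46919.7, 47807 and 50094 in PFF and 11.8, 6.99 and 9.13 in SCNT4c. In all 4 of these genes the groups were far apart. *COL4A2*, *COL18A1*, *BGN*, *MFAP4*, *THBS2*, *MMP2* and *TIMP2* had log2 fold changes of -13.03 to -11.23. The members that rose were few. *ADAMTS12*, a secreted metalloprotease, had values of 0, 5.09 and 4.77 in PFF and 229, 307 and 417 in SCNT4c, *FBLN1*, which encodes fibulin 1, had a log2 fold change of 4.61, and *MMP1*, a collagenase, had one of 1.12.

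Over all known genes with a name and a mean of at least 1000 in PFF, the 10 largest falls on the log2(value + 1) scale were those of *AEBP1*, *PLEC*, *SCARA3*, *MXRA8*, *VEGFA*, *PDGFRB*, *HTRA1*, *EEF1A2*, *IGFBP2* and *COL4A2*. *AEBP1*, which binds collagen, had values of 67610.1, 71827 and 59249 in PFF and 0 in all 3 SCNT4c libraries, and was at least 25263-fold lower in SCNT4c. *PLEC*, a linker of the cytoskeleton, was at least 16123-fold lower, and *SCARA3* and *MXRA8* at least 8883-fold and 7334-fold lower. These 4 genes each had fewer than 3 reads in every SCNT4c library.

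The contractile cytoskeleton and its anchors were lost as well. All 28 actomyosin and caveola genes tested were lower, with a median log2 fold change of -7.38. *FLNA*, which crosslinks actin filaments, had values of 307361, 325417 and 288604 in PFF and 34.7, 35.0 and 40.7 in SCNT4c (log2 fold change -12.99 ± 0.11 (SE), adjusted p = 1.95e-07 in limma). *ACTN1* and *LMOD1*, which bind actin, had PFF means of 66547 ± 7736 (SD, n = 3) and 7275 ± 731 (SD, n = 3), and *LMOD1* was at least 2775-fold lower. *VIM* had values of 333907, 328059 and 360379 in PFF and 619, 554 and 272 in SCNT4c. Of 21 integrin and focal adhesion genes tested, 19 were lower and 2 higher, with a median log2 fold change of -5.17. *ITGA8*, an integrin of mesenchymal cells, had values of 45846, 46327 and 39368 in PFF and 121, 61.2 and 100.5 in SCNT4c, whereas *ITGA4* had values of 0, 0 and 4.77 in PFF and 2943, 3509 and 3904 in SCNT4c. The 2 integrins thus moved in opposite directions with no overlap between the groups, and the log2 fold changes were -8.90 and 10.90. *CSRP1* and *BCAR1* were lower, with log2 fold changes of -12.42 and -9.78, and *TES*, a protein of focal adhesions, was higher, with one of 1.33.

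Of 32 mesenchymal transcription factors tested, 27 were lower and 2 higher, with a median log2 fold change of -5.12 (-4.59 with members under 3 reads at their bound). Of 27 HOX genes, which mark position along the body axis, 15 were lower, 1 was higher and 11 did not pass. The 55.6% lower lay near the 48.0% of all known genes, while the 3.70% higher lay under the 29.8% of all. Their median was -2.80 (-1.46 in edgeR and -1.43 in DESeq2). *PRRX1*, a factor of limb and connective tissue mesenchyme, had values of 38845, 38605 and 38266 in PFF and 103, 48.9 and 14.9 in SCNT4c (log2 fold change -9.79 ± 0.65 (SE), adjusted p = 2.26e-05 in limma). *CREB3L1*, an activator of collagen genes that is made in the endoplasmic reticulum membrane, had a log2 fold change of -11.38 and *PRRX2* one of -10.60, which was -7.66 with the assembled transcript of its locus. *NFIB*, a nuclear factor I gene, was higher, with values of 62.3, 71.3 and 126 in PFF and 2266, 1994 and 2114 in SCNT4c (log2 fold change 4.67 ± 0.29 (SE), adjusted p = 1.75e-05 in limma). Among the HOX genes, *HOXC8* had values of 3317, 2942 and 3272 in PFF and 36.3, 29.7 and 26.6 in SCNT4c, and *HOXA6* and *HOXC6* had log2 fold changes of -6.03 and -5.73. Reads on *HOXC8* were thus few but present in all 3 SCNT4c libraries.

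**Figure D3:**
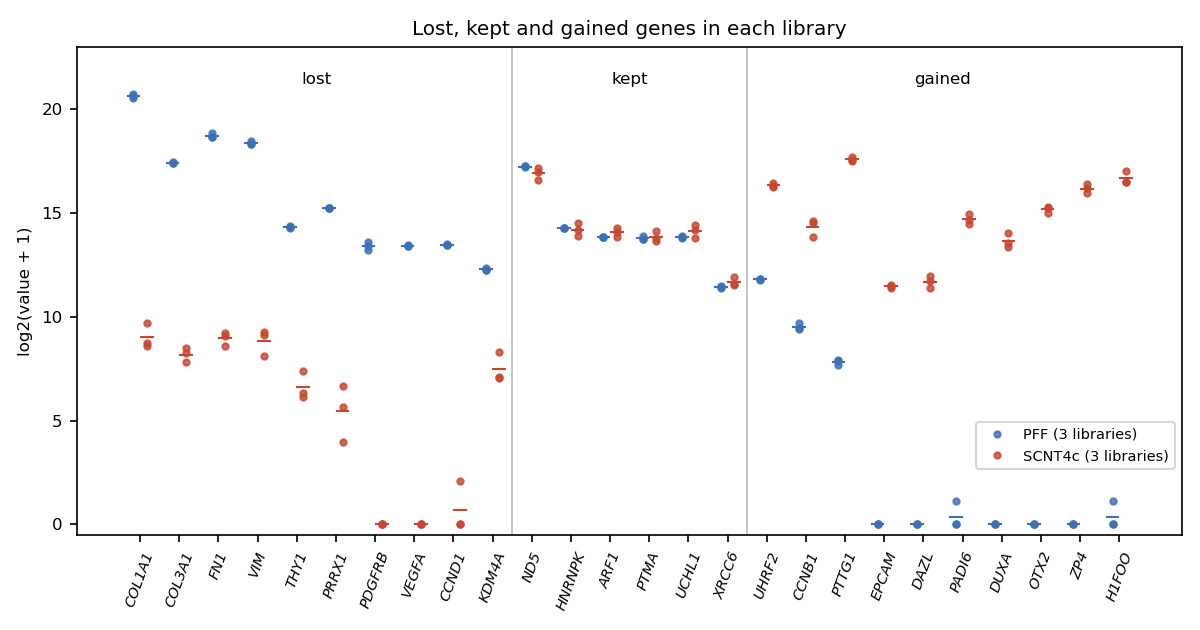
Values of 10 lost, 6 kept and 10 gained genes in each of the 6 libraries, as log2(value + 1), with a short line at the mean of the 3 log2 values of a group. The groups lie apart for the lost and gained genes shown, and at like heights for the kept genes.

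Receptors and ligands of the fibroblast were mostly lost. Of 21 growth factor receptors tested, 17 were lower, 2 higher and 1 kept, with a median log2 fold change of -4.71. Of 30 secreted signals and their binding proteins, 23 were lower and 4 higher, with a median of -5.85. *PDGFRB*, the beta receptor of platelet-derived growth factor, had values of 10995, 12387 and 9509.8 in PFF and 0 in all 3 SCNT4c libraries, and was at least 4182-fold lower in SCNT4c. *VEGFA*, the growth factor of blood vessels, had values of 10997, 11359 and 10799 in PFF and 0 in all 3 SCNT4c libraries, and was at least 4216-fold lower. *ROR2*, *ENG*, *IGFBP2* and *CSF1* had log2 fold changes of -13.03 to -9.76. *KIT*, the receptor of stem cell factor, which oocytes carry, rose instead, with values of 17.1, 20.4 and 11.9 in PFF and 621, 420.3 and 583 in SCNT4c. Its ligand *KITLG* was kept, with values of 4131, 3962 and 4524 in PFF and 2312, 2632 and 2628 in SCNT4c. The activin receptor gene *ACVR2B* and the activin subunit gene *INHBA* rose, with log2 fold changes of 1.46 and 1.52, and the related receptor gene *ACVR2A* was kept, at -0.06.

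Of 37 Wnt pathway genes tested, 30 were lower, 4 higher and 2 kept, with a median log2 fold change of -3.63. *FZD1*, a Wnt receptor, had values of 9219.5, 8955 and 9497 in PFF and 22.1, 22.7 and 3.32 in SCNT4c, while *FZD5*, another receptor of the family, had values of 97.7, 111 and 101 in PFF and 1635, 809 and 749.7 in SCNT4c. The transducer gene *DVL3* and the coactivator gene *BCL9L* had fewer than 3 reads in every SCNT4c library and were at least 386-fold and 2045-fold lower. With the assembled transcript of its locus added, the log2 fold change of *DVL3* was -6.44. *TLE2*, a corepressor, rose, with a log2 fold change of 3.81, and *DKK1*, a secreted Wnt inhibitor, was listed at 0 in PFF and was at least 37.1-fold higher. *WLS*, which carries Wnt ligands to the cell surface, was kept, with values of 5766, 6113 and 5281 in PFF and 9701, 7360.4 and 7862 in SCNT4c. A receptor gene thus fell while another rose, and *WLS* stayed within 2-fold, though not under both scalings.

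Immune and stress genes were lower. All 24 genes of MHC class I and the interferon response that were tested were lower, with a median log2 fold change of -4.97. *IFIT1*, an interferon-induced RNA sensor, had values of 1952, 2329 and 3671 in PFF and 0 in all 3 SCNT4c libraries, and *SLA-2*, a classical MHC class I gene of the pig, had values of 875, 995 and 906 in PFF and 0 in all 3 SCNT4c libraries. They were at least 1011-fold and 353-fold lower in SCNT4c. Of 20 immediate-early and stress genes tested, 17 were lower and 0 higher in limma. At an unadjusted p under 0.05 and with any fold, 0 were higher, and edgeR and DESeq2 called 2 and 2 higher. The median log2 fold change of the list was -4.01. *FOSL2*, a subunit of the transcription factor AP-1, had values of 21792, 22092 and 21764 in PFF and 113, 50.7 and 115 in SCNT4c (log2 fold change -7.96 ± 0.33 (SE), adjusted p = 3.54e-06 in limma). *FOSL1*, another, had a log2 fold change of -6.93, and *KLF4* was at least 88.1-fold lower.

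Lists of machinery that all cells share differed in whether they held kept members. Of 75 cytosolic ribosomal protein genes tested, 68 were lower, with a median log2 fold change of -3.39, and 1 was higher. *RPL13* had values of 16535, 16891 and 18505 in PFF and 26.0, 52.4 and 44.0 in SCNT4c (log2 fold change -8.75 ± 0.27 (SE), adjusted p = 1.31e-06 in limma), and *RPL28* and *RPS4X* had log2 fold changes of -7.99 and -8.54. Ribosomal protein genes have many near-identical copies in the genome and only uniquely mapped reads were kept, so single values are uncertain. Of 27 lysosome genes tested, 24 were lower and 1 higher, with a median of -3.63, and *CTSA*, a lysosomal protease, had values of 9492, 9533 and 8691 in PFF and 14.2, 15.7 and 9.96 in SCNT4c. Of 43 genes of the secretory pathway, 31 were lower, 2 higher and 9 kept, with a median of -1.91. *SURF4*, a cargo receptor, had values of 7057, 7058 and 7237 in PFF and 158, 32.3 and 13.3 in SCNT4c, *SEC11A*, a subunit of the signal peptidase, had values of 2762, 2848 and 2854 in PFF and 15387, 14684 and 12477 in SCNT4c, and *SEC61A1*, the channel through which new proteins enter the endoplasmic reticulum, had values of 12800.0, 13025 and 13919.7 in PFF and 8777, 7999 and 8577 in SCNT4c. The pathway thus held a lost, a gained and a kept member.

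Of 19 glycolysis genes tested, 15 were lower and 2 higher, with a median log2 fold change of -4.53 (-4.27 with members under 3 reads at their bound). *HK1*, the hexokinase that starts the pathway, had values of 7496, 7980.4 and 7171 in PFF and 18.9, 27.1 and 19.9 in SCNT4c, and *SLC16A3*, the lactate exporter of glycolytic cells, had values of 1106, 991 and 949.9 in PFF and 0 in all 3 SCNT4c libraries and was at least 387-fold lower. *LDHA* and *LDHB* encode the subunits of lactate dehydrogenase. *LDHA* had values of 1036, 1027 and 1149 in PFF and 1.58, 2.62 and 11.6 in SCNT4c, and *LDHB* on chromosome 5 had values of 7322, 6874 and 7841 in PFF and 13349, 16002 and 21695 in SCNT4c. The former fell (log2 fold change -7.77 ± 0.60 (SE), adjusted p = 4.59e-05 in limma) and the latter rose (log2 fold change 1.18 ± 0.18 (SE), adjusted p = 0.00109 in limma). The glucose transporter gene *SLC2A3* also rose, with a log2 fold change of 1.07.

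Of 47 nuclear genes of the respiratory chain and ATP synthase, 31 were lower, 2 higher and 6 kept, with a median log2 fold change of -1.60, and of 17 genes of fatty acid beta-oxidation, 12, 1 and 2, with a median of -2.06. *NDUFB1* and *NDUFB5*, subunits of complex I, had log2 fold changes of -5.20 and 1.54. *HADH* and *ECHS1* act in consecutive steps of beta-oxidation. *HADH* had values of 4295, 4412 and 4497 in PFF and 5315, 6098 and 6112 in SCNT4c and *ECHS1* had values of 5701, 5595 and 6072 in PFF and 161, 67.3 and 36.5 in SCNT4c, so the former was kept and the latter lost. Of 13 genes of the mitochondrial genome, 4 could be tested, and 9 had fewer than 3 reads in all 6 libraries. *ND5* was kept, with values of 155724, 157864 and 151145 in PFF and 145466, 131106 and 99538 in SCNT4c, while *ND6*, on the other strand, was lower and *ND4* higher, with log2 fold changes of -2.78 and 1.19. The strand setting of the counting was not stated, so reads of overlapping *ND5* and *ND6* may not be separable.

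Of 20 cholesterol synthesis genes tested, 11 were lower and 4 higher, with a median log2 fold change of -1.39. *SREBF2*, the transcription factor that drives the pathway, had values of 2385, 2342 and 2278 in PFF and 12.6, 7.86 and 3.32 in SCNT4c, whereas *FDFT1*, the squalene synthase, had values of 2156, 2109 and 2216 in PFF and 19289, 18244 and 12265 in SCNT4c. These members of the pathway moved in opposite directions, with log2 fold changes of -8.18 and 2.91.

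**Figure D4:**
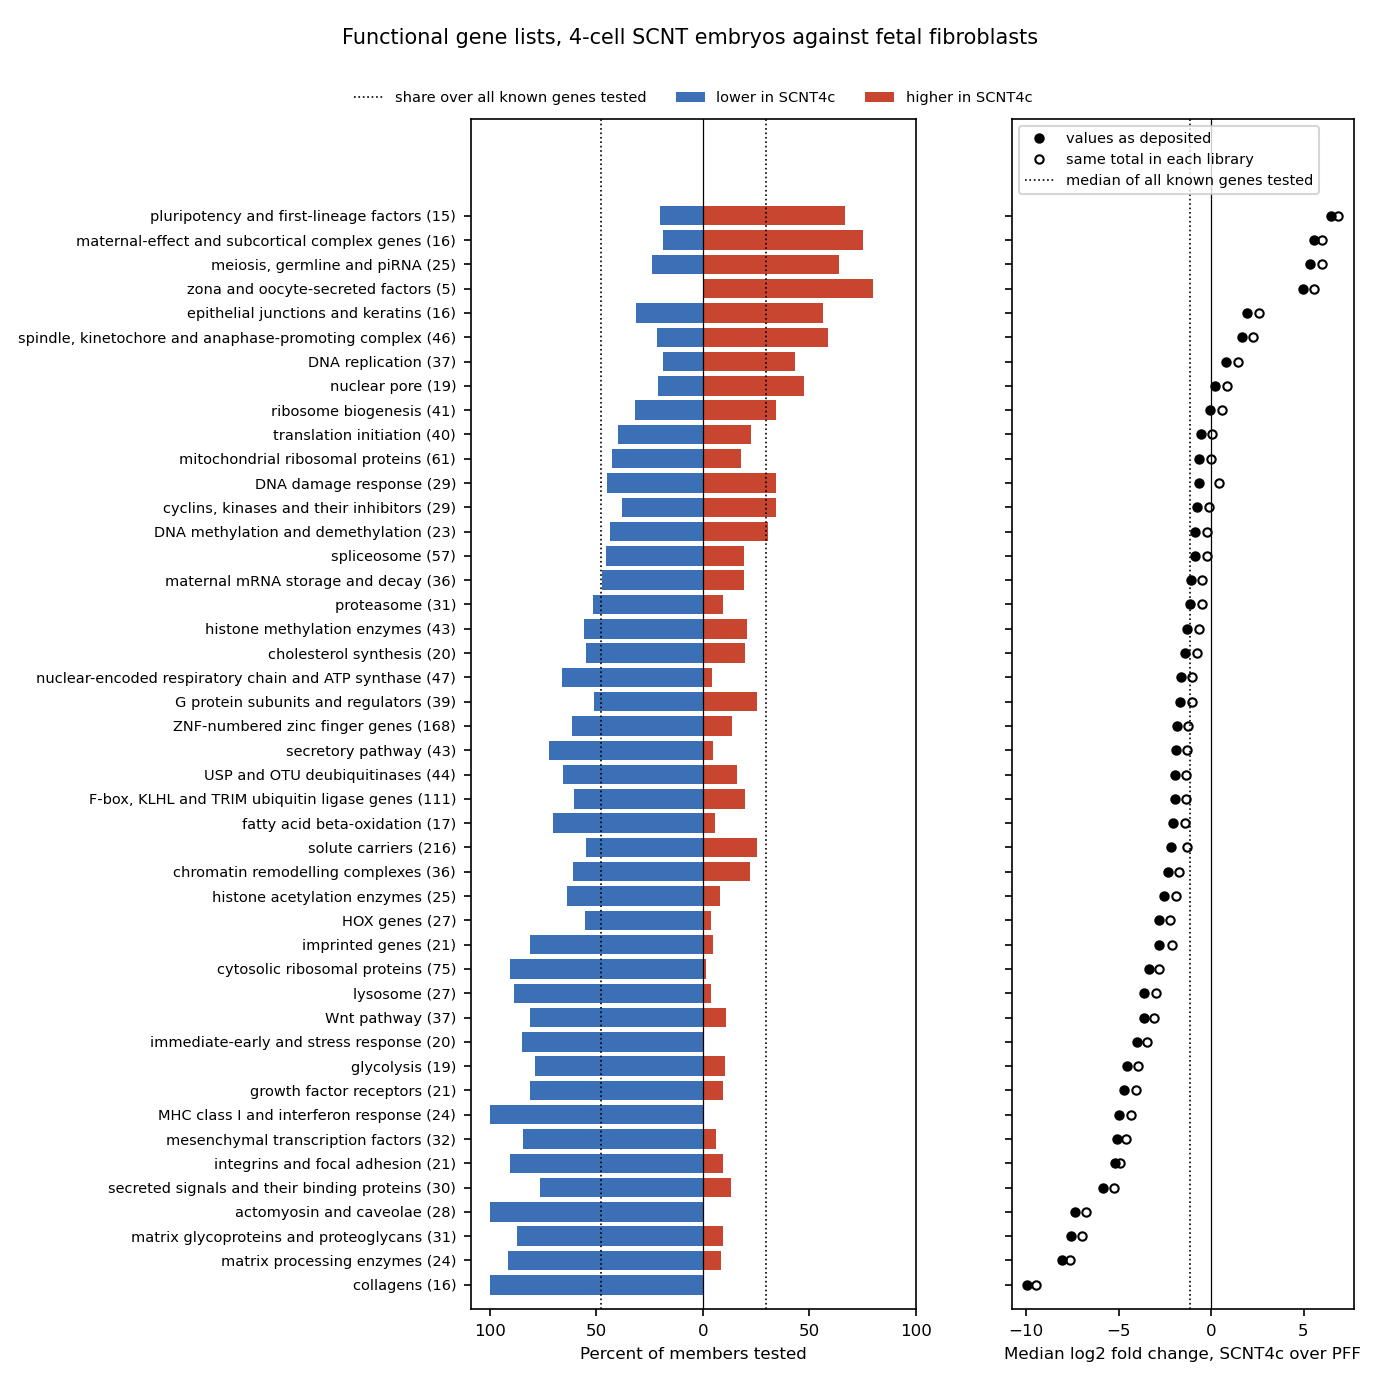
Gene lists of function with 5 or more members tested, ordered by median log2 fold change. Left, percent of members tested (number in brackets) lower and higher in SCNT4c, with dotted lines at 48.0% and 29.8%, the shares over all known genes; right, the median log2 fold change from the values as deposited and with the same total in each library, with a dotted line at -1.12, from collagens at -9.94 to pluripotency and first-lineage factors at 6.48 (1.18 with no filter on low values).

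Which genes were kept depended on the scaling. After scaling every library to the same total, 698 genes were kept, of which 273 were among the 691. These 273 genes were kept under both scalings. Among the 10 kept genes with a name and the highest mean, *ND5*, *PPIA*, *DDX5*, *HNRNPK* and *CCNG1* were kept under both, and *UCHL1*, *ARF1*, *PTMA* and *BZW1* were not. *HNRNPK*, which binds RNA in the nucleus, had values of 20032, 20141 and 19824 in PFF and 15044, 18433 and 23247 in SCNT4c, a log2 fold change of -0.10 ± 0.16 (SE). *PPIA*, the peptidyl-prolyl isomerase cyclophilin A, had values of 28422, 28493 and 28583 in PFF and 18310.5, 26384 and 27030.2 in SCNT4c. The SCNT4c values of *HNRNPK* lay on both sides of the PFF values, while those of *PPIA* lay below them by less than 2-fold. *DDX5*, an RNA helicase, had a log2 fold change of -0.85 (-0.23 with the same total), and *UCHL1*, a deubiquitinase, one of 0.30 (0.92 with the same total).

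Of known genes tested, 5.05% were kept, and of those that reached the PFF mean of 50 that the class requires, 7.98%. Kept members made up 20.9% of the secretory pathway (9 of 43 tested), 19.4% of the proteasome (6 of 31), 19.3% of the spliceosome (11 of 57), 18.0% of the mitochondrial ribosomal proteins (11 of 61) and 17.5% of translation initiation (7 of 40). The ZNF-numbered genes, with 10 of 168 or 5.95%, lay near the share of all genes. Under both scalings, 273 of the 13695 known genes tested were kept. So were 6 of the 43 members of the secretory pathway, 4 of 57 of the spliceosome and 4 of 40 of translation initiation. The proteasome kept 1 of 31 under both. The mitochondrial ribosomal proteins, with 1 of 61, and the ZNF-numbered genes, with 4 of 168, lay near the share of all genes. The median log2 fold changes of these lists were -0.87 for the spliceosome, -0.63 for the mitochondrial ribosomal proteins (-0.01 with the same total), -1.12 for the proteasome and -0.57 for translation initiation (0.05 with the same total). Collagens, matrix genes, actomyosin genes, mesenchymal factors, HOX genes, immune genes, glycolysis, cholesterol synthesis, lysosome genes and cytosolic ribosomal protein genes held 0 kept members. The splicing regulator gene *HNRNPA2B1* was kept (log2 fold change 0.37), whereas *HNRNPA1* rose, with values of 13478, 13046 and 12944 in PFF and 81160.0, 85909 and 113849 in SCNT4c, and *SNRNP70*, of the U1 particle, fell, with values of 4039, 4407 and 4639.9 in PFF and 12.6, 33.2 and 21.6 in SCNT4c. The 3 genes thus went to the 3 classes. In the proteasome, *PSMD1* was kept, *PSMD13* rose and *PSMC6* fell, with log2 fold changes of -0.30, 2.15 and -4.41. Of the mitochondrial ribosomal proteins, *MRPS10* was kept, *MRPS17* rose and *MRPL57* fell, at -0.03, 5.63 and -8.07.

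Egg coat and maternal-effect genes were gained. Of 16 maternal-effect genes tested, 12 were higher and 3 lower, against 29.8% of known genes higher, with a median log2 fold change of 5.56 (4.01 with members under 3 reads at their bound, and 10.75 with a minimum mean of 50). Of 5 zona and oocyte-secreted factors, 4 were higher and 1 was kept. This list also held the receptor gene *KIT* and its ligand gene *KITLG*, which was the kept member. The median of 4.97 was the log2 fold change of *KIT*. With a minimum mean of 50 the median was 8.29, and without SCNT4c library b 8.30. *ZP4*, a glycoprotein of the zona pellucida around the egg, had values of 0 in all 3 PFF libraries and 85407, 63365 and 75580.0 in SCNT4c, and *ZP2*, another, had values of 0 in all 3 PFF libraries and 3321, 3862 and 2414 in SCNT4c. They were listed at 0 in PFF and were at least 19573-fold and 837-fold higher in SCNT4c. *H1FOO*, the linker histone of the oocyte, had values of 0, 0 and 1.19 in PFF and 135057, 92871 and 92764 in SCNT4c, and was at least 27978-fold higher. *PADI6*, a component of the cytoplasmic lattices of the egg, had values of 0, 0 and 1.19 in PFF and 22896, 26109 and 31904 in SCNT4c. Every SCNT4c library was high for these 4 genes. *DPPA3*, which guards maternal methylation, and *NPM2*, which opens sperm chromatin, had SCNT4c means of 4897 ± 1167 (SD, n = 3) and 8384 ± 2711 (SD, n = 3). *CASC3*, of the exon junction complex, fell, with a log2 fold change of -5.98.

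Over all known genes with a name and a mean of at least 1000 in SCNT4c, the 10 largest rises on the same scale were those of *H1FOO*, *ZP4*, *OTX2*, *ARL14EPL*, *WEE2*, *FKBP6*, *PADI6*, *KPNA7*, *BRDT* and *DUXA*. *OTX2*, a homeobox factor of early embryos and of the anterior brain, had values of 0 in all 3 PFF libraries and 32972, 38179 and 40599 in SCNT4c, and was at least 9749-fold higher. *DUXA*, a double homeobox gene, had values of 0 in all 3 PFF libraries and 16923, 11916 and 10391 in SCNT4c, and was at least 3422-fold higher. *FKBP6*, which acts in the piRNA pathway of the germline, had values of 0 in all 3 PFF libraries and 30906, 26222 and 27932 in SCNT4c. All 3 genes were listed at 0 in PFF and were high in each SCNT4c library.

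Genes that store and remove maternal mRNA went in both directions. Of 36 tested, 7 were higher, 17 lower and 6 kept, with a median log2 fold change of -1.10, near that of all known genes. *BTG4*, the adaptor that brings the deadenylase to maternal mRNA, had values of 0 in all 3 PFF libraries and 1480.5, 1668 and 1439 in SCNT4c, and *DAZL*, a germ cell RNA-binding protein, had values of 0 in all 3 PFF libraries and 2639.9, 4036 and 3354 in SCNT4c. Both were listed at 0 in PFF and were at least 400.2-fold and 875-fold higher. *CNOT7*, a subunit of the deadenylase, was kept, with values of 2264, 2214 and 2086 in PFF and 3490.2, 2882 and 2049 in SCNT4c, whereas *CNOT3*, another subunit, was lower, with a log2 fold change of -4.72. *ZFP36L1*, which marks mRNA for decay in many body cells, was lower, with values of 16635, 16236 and 17339 in PFF and 639.7, 337 and 252 in SCNT4c.

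Of 25 genes of meiosis, the germline and the piRNA pathway, 16 were higher and 6 lower. The median log2 fold change was 5.38 (5.01 with members under 3 reads at their bound, and 2.67 with no filter on low values). *PIWIL1*, which binds piRNA, had values of 0 in all 3 PFF libraries and 2634, 2860.1 and 3475 in SCNT4c, and *MAEL*, of the same pathway, had values of 0, 2.55 and 2.38 in PFF and 3362, 5788 and 4776 in SCNT4c. They were at least 782-fold and 1215-fold higher. *REC8*, the cohesin subunit of meiosis, and *SYCP2*, of the synaptonemal complex, went the other way, with log2 fold changes of -4.76 and -4.26. The list held 40 genes in the table, of which 15 had values too low to test.

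Of 15 pluripotency and first-lineage factors tested, 10 were higher and 3 lower, with a median log2 fold change of 6.48, and 23 more were too low to test. This median depended on which members were included and on the fit: it was 1.18 with no filter on low values and 9.68 in DESeq2. *DPPA5*, a developmental pluripotency-associated gene, had values of 0 in all 3 PFF libraries and 2976, 3751 and 1769 in SCNT4c. *POU5F1*, the core pluripotency factor, had values of 0 in all 3 PFF libraries and 927, 98.7 and 6.64 in SCNT4c, so library a alone was far above the others. *NANOG* had values of 0 in all 3 PFF libraries and 10.3, 17.5 and 7.47 in SCNT4c, too low for the test. *POU5F1* and *NANOG* were chosen after their values were seen. *KLF4*, another factor of the list, had values of 222, 220.3 and 250.3 in PFF and 0 in all 3 SCNT4c libraries, and *GATA2* had a log2 fold change of -6.73. Of 16 epithelial junction and keratin genes, 9 were higher and 5 lower, with a median of 1.96. It was 0.83 with no filter on low values, 1.17 with a minimum mean of 50 and 2.90 in DESeq2. *EPCAM*, an epithelial adhesion protein, had values of 0 in all 3 PFF libraries and 3007, 2877 and 2702 in SCNT4c, and *CTNNB1*, which encodes beta-catenin, had values of 17910.0, 17564 and 18064 in PFF and 1943, 3018 and 3006 in SCNT4c. *CDH1*, which encodes E-cadherin, had values of 0 in all 3 PFF libraries and 23.7, 19.2 and 21.6 in SCNT4c, and was at least 5.62-fold higher.

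Genes of mitosis and of DNA synthesis rose more often than they fell. Of 46 genes of the spindle, kinetochore and anaphase-promoting complex, 27 were higher and 10 lower, with a median log2 fold change of 1.67, and of 37 DNA replication genes, 16 were higher, 7 lower and 5 kept, with a median of 0.82. *PTTG1*, the securin that holds sister chromatids together, had values of 233, 242 and 206 in PFF and 194763, 211647 and 186985 in SCNT4c (log2 fold change 9.76 ± 0.10 (SE), adjusted p = 2.38e-07 in limma). *CCNB1*, the cyclin of mitosis, had values of 707, 672 and 825 in PFF and 14768, 24779.6 and 23518 in SCNT4c, and *CDC25C*, the phosphatase that starts mitosis, had values of 159, 217 and 180.0 in PFF and 5019.5, 5594 and 5183 in SCNT4c. All 3 were higher in each SCNT4c library than in any PFF library. Of 29 cyclins, kinases and their inhibitors, 10 were higher and 11 lower, with a median of -0.75 (-0.13 with the same total). *CCND1*, a cyclin of the G1 phase, had values of 11411, 11483 and 11377 in PFF and 0, 0 and 3.32 in SCNT4c, and its partner kinase gene *CDK6* had values of 10682, 11179.7 and 9860.2 in PFF and 139, 99.6 and 148 in SCNT4c. *CDKN1B*, an inhibitor of the G1 kinases, had a log2 fold change of -7.24. The paper describes donor fibroblasts as grown to contact inhibition, which is known to arrest cells in G1 or G0. It does not say whether the fibroblasts sequenced were grown in this way. *PCNA*, the sliding clamp of replication, and *POLD3* rose, with log2 fold changes of 4.14 and 4.96, and *POLD1*, the catalytic subunit of the same polymerase, fell, with one of -6.01. *PLK4* and *ECT2* were kept with the values as deposited, at 0.03 and -0.16.

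Of 29 DNA damage response genes tested, 10 were higher, 13 lower and 1 kept, and the median log2 fold change of -0.63 was 0.42 with the same total. The 34.5% higher and 44.8% lower lay near the 29.8% and 48.0% of all known genes. *MDM2*, a ubiquitin ligase, fell by 6.93 on the log2 scale, and by 3.51 with the assembled transcript of its locus. *XRCC4* and *RAD51C*, which act in the repair of broken ends, rose, with log2 fold changes of 4.29 and 4.19, and *XRCC6*, of the Ku complex, was kept, with values of 2859, 2723 and 2802 in PFF and 2983, 3093 and 3852 in SCNT4c. Of 19 nuclear pore genes, 9 were higher, 4 lower and 3 kept, with a median of 0.23, and *RAE1*, an mRNA export factor, had values of 1983, 1830.2 and 1785 in PFF and 39217, 58992 and 55207 in SCNT4c. Of 41 ribosome biogenesis genes, 14 were higher and 13 lower, and the median of -0.04 was 0.58 with the same total. *POLR1E*, of RNA polymerase I, had a log2 fold change of 4.44 and *BOP1* one of -7.10.

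Lists of chromatin regulators were compared with all known genes, of which 48.0% were lower and 29.8% higher. Of histone methylation, histone acetylation and remodelling genes, 55.8%, 64.0% and 61.1% were lower and 20.9%, 8.00% and 22.2% higher. The genes of DNA methylation lay near the shares of all genes, at 43.5% and 30.4%. With the same total in each library, 40.5% of all known genes were lower and 35.6% higher. Of the 43 histone methylation enzymes 16 were then lower and 12 higher, so their excess of lower members depended on the scaling. Of 25 acetylation and 36 remodelling genes, 15 and 19 were then lower. Of 43 histone methylation enzymes tested, 9 were higher, 24 lower and 3 kept, with a median log2 fold change of -1.31. *KDM4A*, an H3K9me3 demethylase, had values of 4932, 5150.5 and 4933 in PFF and 313, 136 and 134 in SCNT4c, and its relative *KDM4B* had values of 2422, 2571 and 2485 in PFF and 105, 28.0 and 4.98 in SCNT4c. *SUV39H2*, an H3K9 methyltransferase, had values of 527, 502 and 369 in PFF and 6972, 7561 and 6923 in SCNT4c. *KDM4A* and *KDM4B* fell and *SUV39H2* rose, with log2 fold changes of -4.80, -6.56 and 3.95. Those of *KDM4B* and *SUV39H2* were the lowest and the highest of the list. These genes therefore do not show how the other H3K9 enzymes of the list moved, which are not given here. *EZH2*, the H3K27 methyltransferase, had values of 418, 422 and 428 in PFF and 339.9, 344 and 314 in SCNT4c, and it was kept under both scalings. *SUZ12*, its partner, was kept with the values as deposited (0.07), and *MTF2* and *PHF19*, which recruit the same complex, rose, with log2 fold changes of 3.26 and 3.07.

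Of 23 genes of DNA methylation and demethylation, 7 were higher and 10 lower, with a median log2 fold change of -0.86. With the same total in each library, 8 were higher and 8 lower, with a median of -0.24. *TDG*, a glycosylase that removes oxidized methylcytosine, had values of 1194, 1237 and 1024 in PFF and 1659, 939 and 2541 in SCNT4c, with a log2 fold change of 0.46 ± 0.36 (SE), which did not pass (adjusted p = 0.269; 1.09 with the same total). *UHRF2*, which binds hydroxymethylated DNA, had values of 3545, 3649 and 3680.4 in PFF and 79139, 90597 and 80714 in SCNT4c, and *NEIL3*, another DNA glycosylase, had values of 89.2, 107 and 105 in PFF and 4751, 8378 and 8563 in SCNT4c. The methyl-CpG binding genes *MBD2* and *MBD4* were lower, with log2 fold changes of -4.61 and -5.35. *DNMT3B*, a de novo methyltransferase chosen after its value was seen, rose, with a log2 fold change of 1.90.

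Of 25 histone acetylation genes tested, 16 were lower, 2 higher and 4 kept, with a median log2 fold change of -2.54, and of 36 genes of remodelling complexes, 22 were lower, 8 higher and 2 kept, with a median of -2.35. With the assembled transcript of each locus added, the median of the remodelling genes was -1.13, like the -1.12 of all known genes. *EP300*, an acetyltransferase, had values of 397, 441 and 379 in PFF and 0, 3.50 and 0 in SCNT4c, and *SIRT2*, a deacetylase, had a log2 fold change of -6.00. With the assembled transcript of its locus, that of *EP300* went from -7.94 to -5.34. *CHD3*, a remodelling ATPase, had values of 7408, 7882 and 7830.5 in PFF and 22.1, 14.9 and 13.3 in SCNT4c, and *ASF1B*, a histone chaperone, had values of 100.2, 132 and 138 in PFF and 6169, 9041 and 9936 in SCNT4c. *SMARCD1* and *SMARCD2*, subunits of the BAF complex, were kept under both scalings, while their relative *SMARCD3* fell, with a log2 fold change of -5.86. Of 21 imprinted genes tested, 17 were lower and 1 higher, with a median of -2.83. *IGF2R*, which clears IGF2, and *GRB10*, an adaptor of growth factor receptors, had log2 fold changes of -9.51 and -9.39, and *MAGEL2* was at least 259-fold lower.

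In several families, a gene used in body cells has a relative known for its use in germ cells. The 8 pairs given here were picked after their values were seen, so they do not measure how common the pattern is. *PABPC1*, the poly(A)-binding protein of body cells, had values of 39434, 38118 and 41665 in PFF and 436, 346 and 638 in SCNT4c, and *PABPC1L* had values of 0, 3.82 and 0 in PFF and 1644, 717 and 408 in SCNT4c. *WEE1*, an inhibitor of the mitotic kinase, had values of 826, 676 and 784 in PFF and 201, 83.9 and 243 in SCNT4c, and *WEE2*, which acts in the oocyte, had values of 6.11, 0 and 1.19 in PFF and 62392, 83206 and 106099.7 in SCNT4c. *BTG1*, an antiproliferative gene, fell, at least 203-fold lower, and *BTG4* rose. In these 3 pairs and in *RPL10* with *RPL10L* the former gene fell and the latter rose. *RPL10* had a log2 fold change of -4.03, and *RPL10L*, whose reads could be confused with those of *RPL10*, was at least 36.9-fold higher.

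In the other 4 pairs the former gene did not pass as lower. *EIF4E*, which binds the cap of mRNA, had values of 3515, 3622 and 3455 in PFF and 6735, 7615 and 7464 in SCNT4c, and *EIF4E1B* had values of 2.44, 3.82 and 5.96 in PFF and 7383, 5700.1 and 5557 in SCNT4c. *KPNA2*, an importin, had values of 3869, 3816 and 3533 in PFF and 13434, 14617 and 13454 in SCNT4c, and *KPNA7* had values of 4.89, 5.09 and 4.77 in PFF and 102177, 116463 and 128182 in SCNT4c. In both of these pairs the germ cell gene was near 0 in PFF and high in SCNT4c while the body cell gene moved by less than 4-fold. *SMC1A*, of cohesin, had values of 4798, 4942 and 4786 in PFF and 1933, 2912 and 3128 in SCNT4c, lower in each SCNT4c library than in any PFF library, but its log2 fold change of -0.90 (adjusted p = 0.00524 in limma) missed the 2-fold limit, and *SMC1B*, of meiotic cohesin, one of 12.88. *NPM1* and *NPM2* both rose, with log2 fold changes of 2.46 and 12.25.

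**Figure D5:**
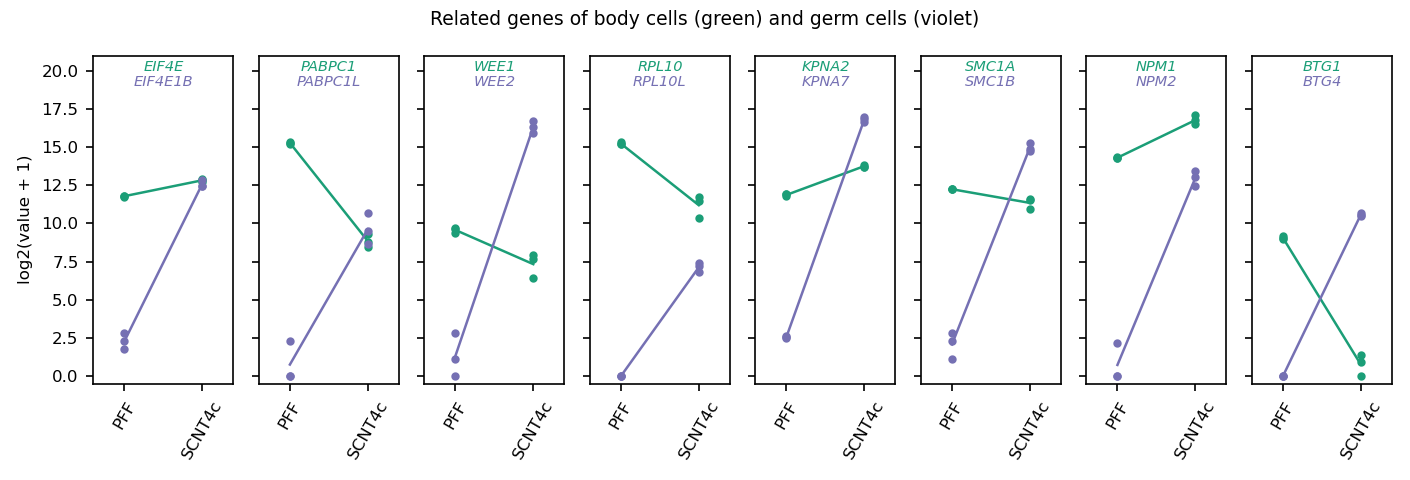
Values of 8 pairs of related genes in the 3 PFF and 3 SCNT4c libraries, as log2(value + 1), with lines between the means of the log2 values. Each germ cell gene (violet) rises from near 0 in PFF, while the body cell gene (green) falls in 4 pairs, does not pass in 1 and rises in 3.

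Promoter sequence was not used to form the classes, and its base composition was described for each. A window of 250 bases before and 50 bases after the annotated start was read from Sscrofa11.1 for 5605 lost, 660 kept and 2204 gained protein-coding genes. The median ratio of observed to expected CpG was 0.77 for lost, 0.82 for kept and 0.65 for gained genes, against 0.74 for all 11482 tested. A ratio under 0.4 was found in 15.7% of lost, 9.70% of kept and 30.5% of gained genes, against 21.3% of all. For the 580 gained genes with fewer than 3 reads in every PFF library the share was 53.8%, and for the 442 lost genes with fewer than 3 reads in every SCNT4c library 21.5%. These are descriptions with no test, and annotated starts may not be those used in the embryo.

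The sequences 150 bases upstream of the start of 5 genes show this range. Capitals mark, on either strand, TATAAA (the TATA box), CCAAT (the CCAAT box), GGGCGG (the GC box) and TAATCC (the core bound by OTX factors), and each sequence is given 5′ to 3′ on the strand of its gene in Sscrofa11.1. *COL1A1* was lost and lies at chr12:26397181-26397330 on the minus strand, and *HNRNPK* was kept and lies at chr10:30975489-30975638 on the plus strand. *H1FOO*, *ZP4* and *DUXA* were gained and lie at chr13:68921341-68921490 and chr14:53576988-53577137 on the plus strand and chr6:61547892-61548041 on the minus strand.
COL1A1: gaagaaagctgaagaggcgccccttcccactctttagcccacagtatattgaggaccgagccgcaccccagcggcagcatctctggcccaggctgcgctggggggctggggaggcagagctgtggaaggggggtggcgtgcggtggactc
HNRNPK: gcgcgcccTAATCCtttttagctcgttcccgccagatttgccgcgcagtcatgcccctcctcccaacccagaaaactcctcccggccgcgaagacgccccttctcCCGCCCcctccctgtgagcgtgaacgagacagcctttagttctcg
H1FOO: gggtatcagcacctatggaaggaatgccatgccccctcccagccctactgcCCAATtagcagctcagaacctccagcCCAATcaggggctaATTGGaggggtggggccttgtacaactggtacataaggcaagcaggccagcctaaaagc
ZP4: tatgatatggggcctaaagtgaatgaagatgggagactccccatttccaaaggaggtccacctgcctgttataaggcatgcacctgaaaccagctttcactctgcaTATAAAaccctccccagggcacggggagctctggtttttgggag
DUXA: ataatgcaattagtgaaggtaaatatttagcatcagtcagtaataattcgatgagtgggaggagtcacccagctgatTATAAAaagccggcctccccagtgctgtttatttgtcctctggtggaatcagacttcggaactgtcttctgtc
The upstream sequence of the kept gene *HNRNPK* held 14 CpG dinucleotides, and those of the gained genes *H1FOO*, *ZP4* and *DUXA* held 0, 1 and 3. That of the lost gene *COL1A1* held 7. *ZP4* and *DUXA* held TATAAA, which begins 44 and 73 bases before the annotated start, and *H1FOO* held CCAAT 3 times, counting both strands.

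Motifs were then counted on either strand in all 11482 windows. TATAAA was found in 6.92% of lost, 8.03% of kept and 11.6% of gained genes, against 8.60% of all, and in 18.4% of those gained from under 3 reads. GGGCGG, a GC box, was found in 65.5%, 64.2% and 49.9%, against 58.9%, and in 33.3% of those gained from under 3 reads. CCAAT was found in 34.4%, 40.8% and 38.5%, against 35.9%. CANNTG, the E-box, was found in 61.4%, 64.4% and 70.3%, against 64.4%, and includes CACGTG, which was found in 9.79%, 10.9% and 8.48%, against 9.07%. TAATCC, the core bound by OTX factors, was found in 4.69%, 6.97% and 6.44%, against 5.49%. TGANTCA, of AP-1, was found in 4.39%, 4.39% and 6.26%, against 5.04%, and CATTCC, of TEAD factors, in 10.6%, 12.3% and 11.4%, against 11.1%. A match is a stretch of letters and not a site known to be bound, and motif counts move with base composition.

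Large gene families held both lost and gained members. Of 168 ZNF-numbered zinc finger genes tested, 103 were lower and 23 higher, of 216 solute carriers 119 and 55, of 111 F-box, KLHL and TRIM genes 67 and 22, of 44 USP and OTU deubiquitinases 29 and 7, and of 39 G protein subunits and regulators 20 and 10. Against the 48.0% lower and 29.8% higher of all known genes, solute carriers (55.1% and 25.5%) and G protein genes (51.3% and 25.6%) lay near these shares, and ZNF-numbered genes (61.3% and 13.7%), F-box, KLHL and TRIM genes (60.4% and 19.8%) and deubiquitinases (65.9% and 15.9%) held more lower and fewer higher members. *TRIM36*, a ubiquitin ligase gene, had values of 30.5, 40.8 and 28.6 in PFF and 8453, 13312 and 8736 in SCNT4c, and *TRIM25*, which acts in antiviral defence, had values of 2264, 2452 and 3309 in PFF and 44.2, 7.86 and 1.66 in SCNT4c. *SLC7A5*, a transporter of large amino acids, had values of 11317, 11706 and 11873 in PFF and 12.6, 5.24 and 9.96 in SCNT4c, and *SLC6A5*, a glycine transporter, had values of 0, 5.09 and 0 in PFF and 8208, 7019.6 and 7536 in SCNT4c. *ZNF469* was at least 1043-fold lower and *ZNF648* at least 66.6-fold higher. *USP20* was at least 202-fold lower, and *USP46*, another deubiquitinase, had a log2 fold change of 3.92. *RGS2*, a regulator of G protein signals, had values of 41.5, 34.4 and 31.0 in PFF and 2731, 4564 and 2984 in SCNT4c, and *RGS4*, another, had values of 264, 292 and 327 in PFF and 0, 0 and 3.32 in SCNT4c.

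Markers of other cell types were summed as well. The lists differ in size and values carry no length correction, so sums are compared between groups and not between lists. All 6 epithelial markers tested were higher, with a summed value of 466 to 523 in PFF and 8759 to 9998 in SCNT4c. Of the 10 in the table, 6 had fewer than 3 reads in every PFF library, and such genes could pass the filter only by being higher. Of 17 cumulus and granulosa markers in the table, 11 could be tested, of which 3 were higher and 6 lower, and their summed value was 919.9 to 1080.0 in PFF and 541 to 838 in SCNT4c. *FSHR*, *INHA* and *AMH* were at 0 in at least 1 SCNT4c library. *FST* was the highest of the list there, without length correction. Its values were 69.6, 72.6 and 87.0 in PFF and 416, 336 and 261 in SCNT4c. Their part in the results was not tested. Blood markers summed to 436 to 470.0 in PFF and 281 to 496 in SCNT4c, and muscle markers to 2126 to 3693 and 118 to 323. These sums do not describe most members. Of 6 blood markers tested, 4 were higher and 1 lower, and of 4 muscle markers, 3 were higher and 1 lower. Endothelial markers summed to 34.6 to 118 and 1036 to 1394, and the endothelial sum lay mostly on *TEK*, with values of 0 in all 3 PFF libraries and 1316, 1091 and 1020.4 in SCNT4c.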

How the data were processed

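RNA of fibroblasts (TRIzol) and of pools of 30 SCNT embryos (PicoPure) was amplified by SMARTer Pico cDNA synthesis and PCR, and 150 bp paired reads were sequenced. The authors trimmed reads with Trimmomatic 0.39, kept those aligned uniquely by STAR 2.5.3a to Sscrofa 11.1, assembled transcripts with StringTie 2.1.2, counted with HTSeq and divided by DESeq2 size factors. The deposited values are therefore a normalized signal per gene or assembled transcript, and the strand setting was not stated. Of 43535 entries, 241 repeats were removed.

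Divided by the step of its library, 100% of values came out whole (tolerance 0.01 reads), so reads were recovered, at 20460653 to 22868038 per library. This sets a floor of 3 reads, which, like the reads, covers counting error only. Features averaging 10 or more across both groups were fitted as log2(value + 1) in limma 3.58.1 on the 6 PFF and SCNT4c libraries, without covariates, and p-values were adjusted over all 19287 features tested. edgeR 4.0.16 and DESeq2 1.42.0 on the recovered reads were alternatives, as were other scalings, pseudocounts, filters and left-out libraries. The fits were tested on simulated data. Members and lists were chosen with earlier results of these data known. Named genes were, from each list, up to 3 changed members a direction with the largest log2 fold change, no overlap between groups and 100 or more as the mean of the higher group, and up to 2 kept members of highest mean. Over all genes with a name, these were, the 10 largest changes a direction with a mean of 1000 or more and the 10 kept genes of highest mean. Cell type markers, *KDM4A*, *EZH2* and *TDG* were named as well, and some genes that fall under these rules are not reported here. The genes of highest value, the related pairs and the shares of other groups were chosen after the values were seen. Column names of the table were tied to groups by the sample titles, since descriptions of other samples repeat them.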

Additional observations from a re-analysis of the deposited data

How the results depend on the processing

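Under 20 alternatives, 208 values of counts and shares stayed within 1.5 times (counts) or 1 SD (shares) and 10 did not. With a minimum mean of 50, 10020 features changed, 4294 features were higher and 2459 known genes were higher, because fewer features were tested. With a class minimum of 10, 743 lost and 1829 gained genes were under the floor in the other group, and with a class minimum of 200 these were 218 and 531, gained genes numbered 1896 and lost genes held 81.1% of the PFF value. Kept genes numbered 1680 when chosen by the ratio of means. Leaving out each library in turn gave 14348 to 14868 changed features, 7171 to 7641 higher and 6746 to 7697 lower, 3794 to 4071 known genes higher and 6062 to 6759 lower, 5571 to 5885 lost genes with 459 to 466 under the floor, 2995 to 3078 gained genes with 1135 to 1189 under the floor, and 493 to 926 kept genes. The 926 were without SCNT4c library a. Over the same alternatives, the number of lower members of the 46 gene lists stayed within 1.5 times 905 times and did not 15 times, that of higher members 828 and 92 times, and that of kept members 753 and 167 times. The median log2 fold change of 40 lists kept its sign throughout, and those of mitochondrial ribosomal proteins, translation initiation, ribosome biogenesis, cyclins and kinases, DNA damage response and DNA methylation did not. The medians of gained lists moved most, from 3.50 to 10.75 for maternal-effect genes and from 2.67 to 7.68 for meiosis genes. They ran from 1.18 to 9.68 for pluripotency factors and from 4.37 to 8.30 for zona and oocyte-secreted factors. The median of epithelial junction genes ran from 0.83 to 2.90 and that of HOX genes from -4.03 to -1.43. That of solute carriers was -0.71 with no filter on low values. Of 339 named genes with a fit, 0 reversed and 52 changed their call under at least 1 of 17 alternatives. Kept genes shared 273 members with those of the same total, 301 with TMM, 228 with quantile normalization, 172 with edgeR and 179 with DESeq2.

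No paired analysis was possible because the SCNT4c columns could not be tied to numbered samples and the labels name no shared animal, culture or day. Extraction kit and amount of RNA cannot be told apart from the group. Values carry no length correction, and reads of 56.9% of known genes may be split with an assembled transcript. At this depth a value under 3.82 in PFF or 2.62 in SCNT4c is below 3 reads.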

Other observations

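The classes were spread over the chromosomes unevenly, as a description with no test. Among the autosomes and the X chromosome of the annotation, lost genes made up 35.0% of the genes tested on chromosome 16 and 49.6% on chromosome 2. Gained genes made up 15.6% on chromosome 12, 17.2% on chromosome 2, 29.0% on chromosome 9 and 28.8% on the X chromosome. Chromosomes 12 and 2 thus held a higher share of lost genes and a lower share of gained genes than most others.

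Further kept genes belonged to the lists of ubiquitin genes, ribosome biogenesis, the Wnt pathway and the respiratory chain. *USP25* and *OTUD3*, which remove ubiquitin, *FBXO21*, an F-box gene, and *DDX21* and *WDR43*, which act in making ribosomes, were kept under both scalings. *PYGO2*, a coactivator of the Wnt pathway, and *COX6A1*, a subunit of cytochrome c oxidase, were kept under both as well. Among assembled transcripts, 64.1% of 5592 tested were higher and 15.1% lower in SCNT4c, against 29.8% and 48.0% of known genes. That list was assembled from reads of a study made up mostly of embryo libraries, and the part this plays was not tested.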
